A study of Mus musculus with 24 samples.

Results

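Levels of 40 genes of the unfolded protein response and of protein folding in the endoplasmic reticulum were followed in mouse lung, out of 12393 genes with a probe set of their own on an Affymetrix 430A 2.0 array. The members were listed by symbol for their known roles, with earlier results of these data known, and fall into 5 classes: 15 chaperones and folding enzymes, 6 genes of ER-associated degradation (ERAD), 4 sensors and transcription factors, 6 genes of the Atf4 type, and 9 genes of the translocon, signal peptidase and vesicle transport. Where a gene had several probe sets, the one with the highest mean was used. Each array carried RNA of the left lung lobe of 1 male mouse, with 3 mice in each of 8 groups: C3H/HeOuJ mice (OuJ), whose Tlr4 is sufficient, and C3H/HeJ mice (HeJ), whose Tlr4 is dominant negative, in air or after 6, 24 or 48 hours of ozone. Tlr4 is the receptor for bacterial lipopolysaccharide, and ozone is an oxidant gas that injures the lining of the airways. All groups carry the C3H background. The sources used here give neither age nor ozone concentration, and a duration of 72 hours that the labels also mention was not analysed here. The array does not read the Tlr4 allele itself, so the strain labels were taken as given. The series asks how ozone alters lung transcripts in mice that lack a working Tlr4.

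Secreted and membrane proteins fold in the endoplasmic reticulum (ER), where chaperones such as Hspa5 (BiP) hold unfinished chains and protein disulfide isomerases set their disulfide bonds. When unfolded protein accumulates, the membrane sensors Ern1 (IRE1), Eif2ak3 (PERK) and Atf6 start the unfolded protein response: Ern1 splices the messenger of the transcription factor Xbp1, Atf6 is cut to release a transcription factor, and Eif2ak3 slows translation while that of Atf4 is favoured. Xbp1 and the cut form of Atf6 induce chaperones and ERAD genes, and Atf4 induces amino acid synthesis genes, Ddit3 (CHOP) and Trib3. In the lung, alveolar type 2 cells, airway secretory cells and plasma cells secrete much protein and have a large ER.

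Signals here are the authors' deposited intensities on a linear scale. Changes are differences of log2(signal + 16) between the means of 3 arrays per group, given ± their standard error (SE), and understate the change of dim genes. A gene passed when its p from limma, fitted to all 24 arrays and adjusted by Benjamini-Hochberg over 8002 genes, was under 0.05. Of the 40 members 39 were tested. Ern1 was left out by the filter on low values, with signals from 69.2 to 183.7 and none above the table's median of 218.3. Another 36 members lay above that median in all 24 arrays. Sdf2l1 did so in all but 1 OuJ air array, and Chac1 and Trib3 in 13 and 9 arrays. Array medians ran from 200 to 229.3, and arrays of a group correlated at r = 0.965 to 0.979 across probe sets. The sample codes in the labels bear a series number of 3 for air and 6 h in both strains, 10 for OuJ at 24 and 48 h and 13 for HeJ at 24 and 48 h, with no statement of what it marks. A change from air at 24 or 48 h therefore cannot be told apart from a difference between these series, whereas 48 h against 24 h and 6 h against air lie within a series.

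The promoters are shown first, because elements of this response are known there by sequence. RefSeq promoters of the assembly GRCm38.p6 were matched by symbol for 34 of the 40 members, and the 250 bases before the transcription start were searched on both strands. The ER stress response element (ERSE), which binds Atf6 and Xbp1 together with NF-Y, was searched as CCAAT and CCACG with 9 free bases between them. It was found in 8 of the 34 members (23.5%) and in 35 of 27025 genes with such a promoter (0.13%). Of the 13 chaperones and folding enzymes with a promoter 7 held it, Hsp90b1 with 2 copies, and the other holder was the ERAD ligase Syvn1. These elements are printed 5′ to 3′ in the CCAAT to CCACG direction, with both fixed ends in capitals and the free spacer in lower case, and with the strand on which they read.
Calr ERSE, chr8:84847075-84847093, plus strand: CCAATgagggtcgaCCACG
Canx ERSE, chr11:50325800-50325818, minus strand: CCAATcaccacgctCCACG
Creld2 ERSE, chr15:88819520-88819538, minus strand: CCAATtgaggctcgCCACG
Dnajc3 ERSE, chr14:118937827-118937845, plus strand: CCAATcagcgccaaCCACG
Hsp90b1 ERSE, chr10:86705638-86705656, minus strand: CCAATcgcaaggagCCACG
Hsp90b1 ERSE, chr10:86705533-86705551, plus strand: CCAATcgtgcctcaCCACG
Hspa5 ERSE, chr2:34772025-34772043, plus strand: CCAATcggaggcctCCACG
Pdia6 ERSE, chr12:17266491-17266509, plus strand: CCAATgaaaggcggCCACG
Syvn1 ERSE, chr19:6046532-6046550, plus strand: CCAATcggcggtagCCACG
The ERSE-II form, searched as ATTGG and CCACG with 1 free base between them, occurred in Herpud1 alone of the members and in 0.037% of all promoters. The Atf4 element CARE, searched as TGATGNAA, occurred in 3 of the 34 members (8.82%) and in 3.91% of all promoters. Its holders were Asns and Chac1 of the Atf4 type, and Herpud1. The capitals again mark the fixed bases.
Herpud1 ERSE-II, chr8:94386377-94386387, plus strand: ATTGGgCCACG
Asns CARE, chr6:7693225-7693232, minus strand: TGATGaAA
Chac1 CARE, chr2:119351049-119351056, minus strand: TGATGcAA
Herpud1 CARE, chr8:94386317-94386324, minus strand: TGATGcAA
The element TGACGTGG, known as UPRE, occurred in Sec24d and in 0.603% of all promoters. No searched matches overlapped one another. The promoter of Hspa5, the main ER chaperone, is given whole on the plus strand at chr2:34771840-34772089, with its exact match to the searched ERSE in capitals. Near matches, which differ from the searched letters at a fixed base, were not searched and stay in lower case.
Hspa5 promoter: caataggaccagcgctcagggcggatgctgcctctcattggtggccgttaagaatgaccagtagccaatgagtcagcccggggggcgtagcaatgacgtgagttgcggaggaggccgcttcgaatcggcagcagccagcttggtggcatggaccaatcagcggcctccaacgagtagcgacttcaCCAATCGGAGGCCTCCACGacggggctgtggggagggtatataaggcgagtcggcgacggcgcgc
A match of letters is a description of the sequence and not a test of binding. The elements were known beforehand from promoters of this response. Their shares among the members therefore describe the list and do not test it.

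In OuJ mice 9 of the 39 tested members rose at 24 h and 12 at 48 h, and none fell. These are 23.1% and 30.8% of the members, beside 3.16% and 3.7% of all genes tested that rose and 3.42% and 4.24% that fell (6.59% and 7.94% in either direction). In HeJ mice 1 member rose at 24 h (2.56%, beside 3.16% of all genes rising, 3.96% falling and 7.12% in either direction). At 48 h 17 rose (43.6%, beside 5.69% of all genes) and 1 fell (beside 6.47%, with 12.2% in either direction). No member passed at 6 h in either strain by limma, where 0.0875% of all genes rose and 0.05% fell in OuJ, and 0.0125% rose and 0.025% fell in HeJ. At an unadjusted p under 0.05 there were 2 members at 6 h in OuJ and 6 in HeJ, and the share of all genes at that threshold is not given here. The median change of the members was 0.22 at 24 h and 0.27 at 48 h in OuJ, and 0.07 and 0.36 in HeJ, while that of all genes lay between -0.03 and -0.02. All 3 exposed arrays lay above all 3 air arrays for 18 members at 24 h and 24 at 48 h in OuJ (11.2% and 12.5% of all genes), and for 7 and 28 in HeJ (10.7% and 13.7%). They lay below all air arrays for 0 members at either time in OuJ (15% and 17.3% of all genes) and for 3 at each time in HeJ (13.6% and 17.1%). At 6 h 6 members lay above and 0 below in OuJ (7.95% and 9.04% of all genes), and 2 above and 3 below in HeJ (5.37% and 7.04%). The 3 exposure times of a strain are set against the same 3 air arrays. In this tissue, a change in the number of cells of a type and a change in RNA per cell cannot be told apart.

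**Figure D1:**
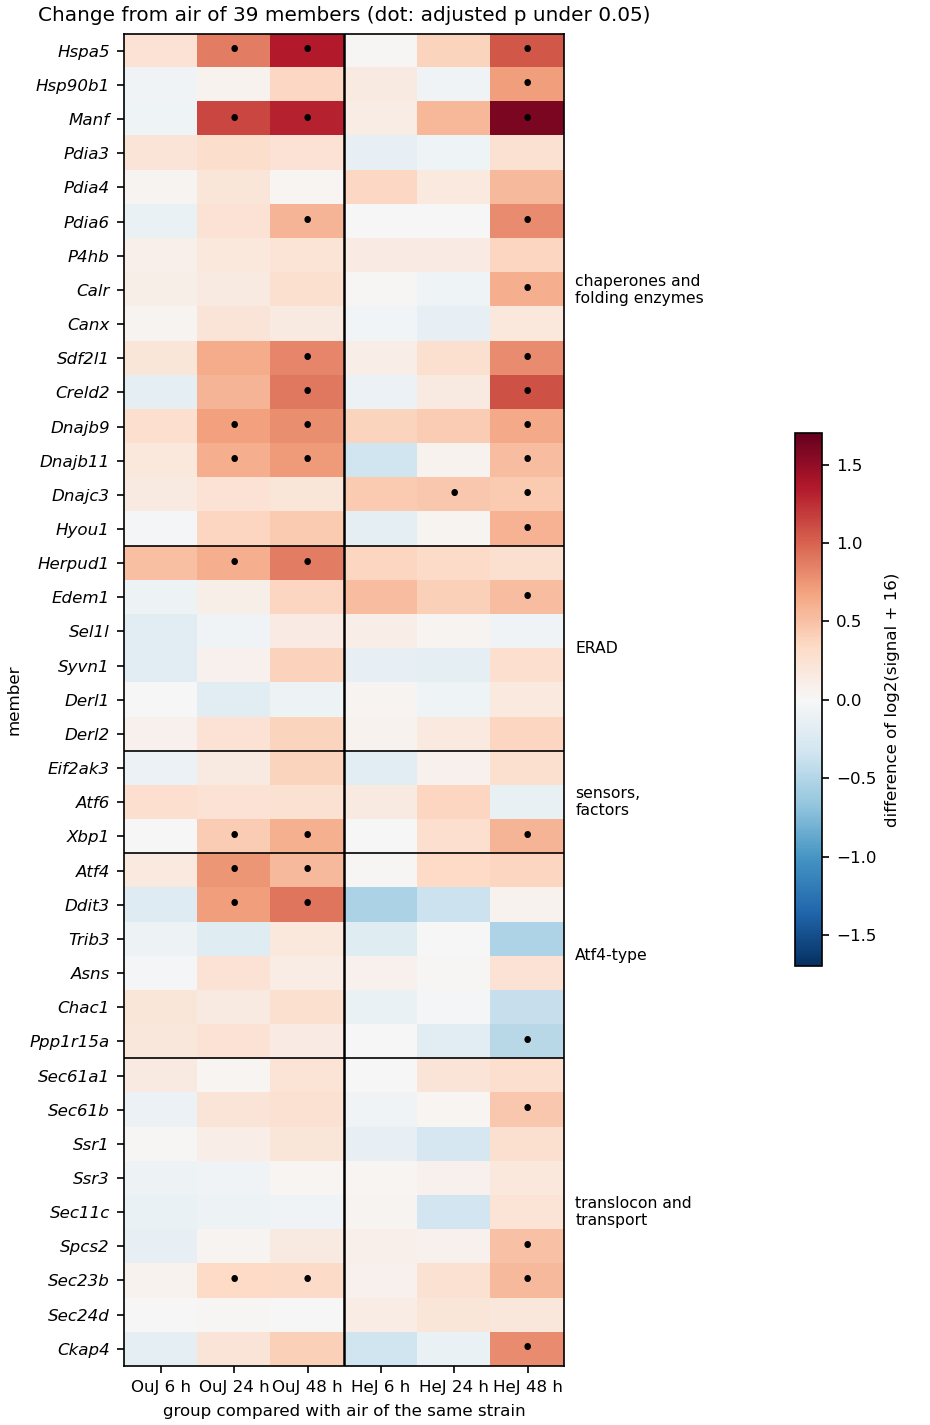
Change from air of the 39 tested members, by class (rows) and by strain and exposure time (columns). Colour gives the difference of log2(signal + 16) between means of 3 arrays, and a dot marks an adjusted p under 0.05. No dot stands at 6 h, 9 and 12 stand in the OuJ columns at 24 and 48 h, and 1 and 18 in the HeJ columns, where the 1 fall is Ppp1r15a.

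The 2 strains had separate air arrays, and 9 of the members that rose at 48 h were shared. Creld2, Dnajb11, Dnajb9, Hspa5, Manf, Pdia6, Sdf2l1, Sec23b and Xbp1 make up 75% of the OuJ list and 52.9% of the HeJ list. Atf4, Ddit3 and Herpud1 passed in OuJ and not in HeJ. Calr, Ckap4, Dnajc3, Edem1, Hsp90b1, Hyou1, Sec61b and Spcs2 passed in HeJ and not in OuJ. Whether these changes differ between the strains is a separate test, given below.

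Among the chaperones and folding enzymes 4 of 15 rose in OuJ at 24 h, 7 in OuJ at 48 h, 1 in HeJ at 24 h and 11 in HeJ at 48 h. All 15 changes were above 0 in OuJ at both times and in HeJ at 48 h, with medians of 0.30, 0.45 and 0.62, and 11 of 15 in HeJ at 24 h, with a median of 0.14. Averaged over the class, the log2 level was 10.58 to 10.67 in the OuJ air arrays, 10.89 to 11.29 at 24 h and 11.10 to 11.34 at 48 h. In HeJ it was 10.47 to 10.55 in air, 10.50 to 10.80 at 24 h and 11.15 to 11.22 at 48 h. The HeJ arrays at 24 h thus overlapped those in air, and those at 48 h lay above every HeJ array of the other times.

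Hspa5 (BiP), the main ER chaperone of the Hsp70 family and a regulator of the sensors, had signals of 5622, 5776 and 5209 in OuJ air, 7294, 5974 and 6499 at 6 h, 9736, 8419.6 and 12804 at 24 h and 12942, 13702 and 15649 at 48 h. Every OuJ array at 24 and 48 h lay above all OuJ arrays in air and at 6 h. Its change was 0.88 ± 0.13 at 24 h (1.84-fold, limma adjusted p = 0.000258) and 1.34 ± 0.13 at 48 h (2.54-fold, adjusted p = 9.71e-07). In HeJ the signals were 4651, 5897 and 5017 in air, 5342, 5268 and 5108 at 6 h, 7269, 7254 and 5782 at 24 h and 11649, 9376 and 11435 at 48 h. One HeJ array at 24 h lay below the highest in air, and the change of 0.38 ± 0.13 did not pass (adjusted p = 0.0828), while that of 1.06 ± 0.13 at 48 h did (2.08-fold, adjusted p = 1.63e-05).

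Manf, a small ER-resident protein that is also secreted and protects stressed cells, had OuJ signals of 1117, 1075 and 1041 in air, 2078, 2125 and 3031 at 24 h and 2788, 2179.8 and 3168 at 48 h. Its changes in OuJ were 1.13 ± 0.18 (2.19-fold, adjusted p = 0.000462) and 1.30 ± 0.18 (2.47-fold, adjusted p = 8.69e-05). In HeJ the signals were 1042, 757 and 809 in air, 1470.0, 1445 and 998 at 24 h and 2888, 2416 and 2682 at 48 h. The HeJ arrays at 48 h stood apart from the other HeJ arrays, with a change of 1.61 ± 0.18 (3.05-fold, adjusted p = 5.91e-06), the largest of any member. At 24 h its HeJ change of 0.57 ± 0.18 did not pass (adjusted p = 0.0584).

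Creld2 and Sdf2l1, a disulfide isomerase-like protein and a partner of the ER DnaJ chaperones, rose at 48 h in both strains. Creld2 signals were 532, 399.8 and 440.5 in OuJ air, 662, 539.7 and 913 at 24 h and 807, 763 and 1025 at 48 h. All OuJ arrays at 24 and 48 h lay above those in air, and the change passed at 48 h (0.89 ± 0.18, adjusted p = 0.00361) but not at 24 h (0.58 ± 0.18, adjusted p = 0.0559). HeJ signals of Creld2 were 479, 446 and 477 in air, 582, 556 and 443 at 24 h and 820.5, 1087 and 1154 at 48 h, a change of 1.09 ± 0.18 at 48 h (adjusted p = 0.000454). Sdf2l1 changed by 0.83 ± 0.22 in OuJ (adjusted p = 0.0205) and 0.81 ± 0.22 in HeJ (adjusted p = 0.0183) at 48 h. Without OuJ air replicate 1, whose signal of 196 was the lowest of all, the OuJ change of Sdf2l1 was 0.54 and did not pass (adjusted p = 0.16). Over all 17 alternatives its adjusted p ran from 0.00976 to 0.16 in OuJ and from 0.00721 to 0.097 in HeJ.

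Of the DnaJ co-chaperones, which stimulate Hspa5, Dnajb9 and Dnajb11 rose in OuJ at both times and in HeJ at 48 h. Dnajb9 signals in OuJ were 1524, 1499 and 1462 in air, 1862, 2538 and 3045 at 24 h and 2498, 2602 and 2697 at 48 h. The air arrays lay close together below all exposed ones, with changes of 0.70 ± 0.18 (adjusted p = 0.0178) and 0.79 ± 0.18 (adjusted p = 0.00663). Dnajb9 in HeJ changed by 0.65 ± 0.18 at 48 h (adjusted p = 0.0177), from air signals of 1071, 1949 and 1253 to 2173, 2241 and 2091. Dnajb11 changed by 0.62 ± 0.17 and 0.73 ± 0.17 in OuJ and by 0.52 ± 0.17 in HeJ at 48 h (adjusted p = 0.0288, 0.00819 and 0.0454), and the HeJ call was lost under 9 of 17 alternatives. Its OuJ calls at 24 and 48 h were lost under 4 and 1 of 17. Those of Dnajb9 in OuJ at 24 h and in HeJ at 48 h were lost under 5 and 4. Without OuJ 24 h replicate 3, neither Dnajb9 nor Dnajb11 passed there (adjusted p = 0.124 and 0.174). Dnajc3 (p58IPK), which also holds back the Eif2ak3 kinase, was the 1 member that passed in HeJ at 24 h. Its HeJ signals were 1131, 897 and 1061 in air, 1229.9, 1359 and 1629.6 at 6 h, 1423, 1639.5 and 1219 at 24 h and 1408, 1378 and 1427 at 48 h. All exposed HeJ arrays lay above the air arrays from 6 h on, with changes of 0.44 ± 0.12 (adjusted p = 0.228), 0.46 ± 0.12 (adjusted p = 0.0164) and 0.45 ± 0.12 (adjusted p = 0.0138). The 24 h call was lost under 5 of 17 alternatives, among them without HeJ air replicate 2 (0.37, adjusted p = 0.0998), HeJ 24 h replicate 1 (0.46, adjusted p = 0.0522) and HeJ 24 h replicate 2 (0.36, adjusted p = 0.0791). In OuJ the changes of Dnajc3 were 0.15 to 0.25 and none passed. Other probe sets of Dnajc3 changed by 0.40 to 0.73 in OuJ at 48 h, beside 0.21 for the one used. In HeJ at 48 h they changed by 0.43 to 0.62, beside 0.45.

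Of the disulfide isomerases Pdia3, Pdia4, Pdia6 and P4hb, Pdia6 rose at 48 h, by 0.57 ± 0.13 in OuJ (adjusted p = 0.00684) and 0.80 ± 0.13 in HeJ (adjusted p = 0.000269). Its signals in HeJ were 1111, 1066 and 967 in air, 1109, 1169.9 and 906 at 24 h and 1862, 1832 and 1804 at 48 h, so that the 48 h arrays stood well above the rest. With the mean of its probe sets the OuJ change of Pdia6 was 0.19 and did not pass (adjusted p = 0.528). Pdia3, Pdia4 and P4hb passed in no comparison with air, with changes of -0.14 to 0.30, 0.04 to 0.56 and 0.09 to 0.37. Hsp90b1 (Grp94), the ER Hsp90, and Hyou1 (Grp170), a large Hsp70 relative that exchanges nucleotide on Hspa5, rose in HeJ at 48 h. Hsp90b1 signals in HeJ were 2030.2, 2428 and 1727 in air, 1653, 2664 and 1714 at 24 h and 3177, 3619.8 and 3271 at 48 h, a change of 0.71 ± 0.16 at 48 h (adjusted p = 0.00487). Hyou1 changed by 0.59 ± 0.14 in HeJ (adjusted p = 0.00882) and 0.45 ± 0.14 in OuJ (adjusted p = 0.0556) at 48 h. The HeJ change of Hyou1 was 0.30 with the mean of its probe sets (adjusted p = 0.183). Among the lectin chaperones of glycoproteins, Calr rose by 0.62 ± 0.14 in HeJ at 48 h (adjusted p = 0.00387) with signals of 5572, 5611 and 5831 in air and 8898, 7896 and 9491 at 48 h. Its membrane-bound partner Canx, whose changes ran from -0.14 to 0.22, passed nowhere.

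**Figure D2:**
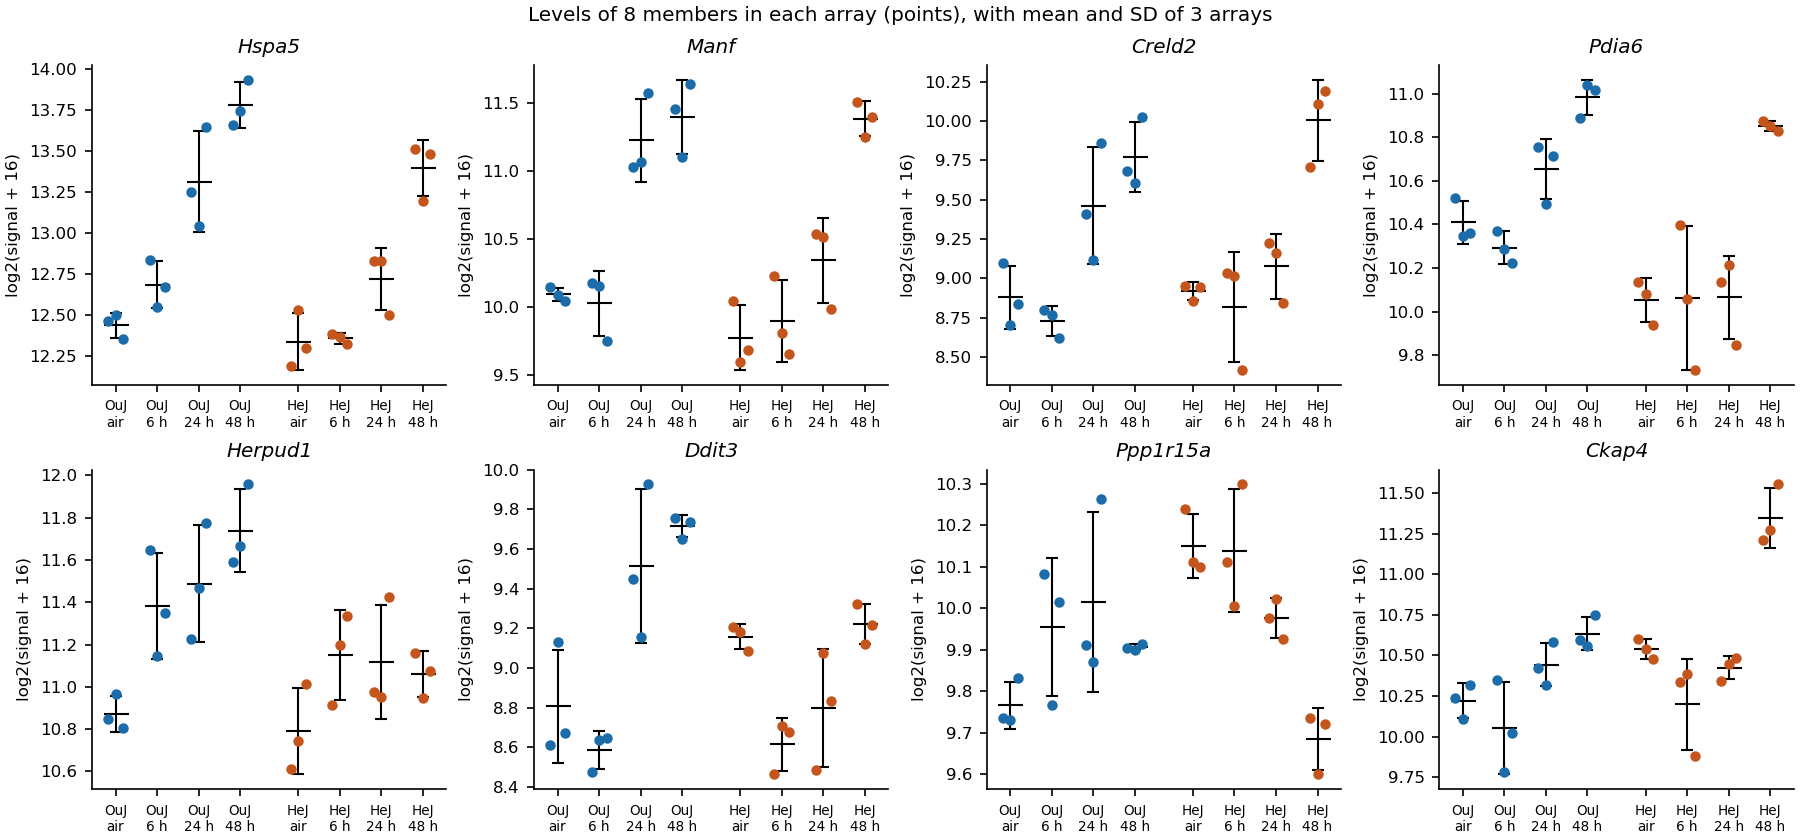
Levels of 8 members on the log2(signal + 16) scale (vertical axes, not starting at 0) in the 8 groups of 3 arrays. Points are arrays, in replicate order, and bars give mean and SD, OuJ in blue and HeJ in orange. Hspa5, Manf, Creld2 and Pdia6 were high at 48 h in both strains, Herpud1 and Ddit3 passed against air in OuJ and not in HeJ, and the group mean of Ppp1r15a was lowest and that of Ckap4 highest in HeJ at 48 h.

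Of the ERAD genes, which take misfolded chains out of the ER for degradation, 1 of 6 rose in OuJ at 24 h, 1 at 48 h, none in HeJ at 24 h and 1 at 48 h. Herpud1, a membrane scaffold of the degradation complex, had OuJ signals of 1827, 1987 and 1771 in air, 3189, 2252 and 2596 at 6 h, 2378, 2811 and 3487 at 24 h and 3065, 3239 and 3966 at 48 h. All 9 exposed OuJ arrays lay above the 3 in air. Its changes were 0.51 ± 0.16 at 6 h (adjusted p = 0.162), 0.61 ± 0.16 at 24 h (adjusted p = 0.0198) and 0.87 ± 0.16 at 48 h (adjusted p = 0.0014). In HeJ the signals were 1549.7, 1698 and 2050.0 in air and 2273, 1959 and 2139 at 48 h, overlapping, and the changes of 0.27 to 0.36 did not pass. Edem1, which marks glycoproteins for degradation by trimming mannose, rose in HeJ at 48 h by 0.52 ± 0.14 (adjusted p = 0.0177). Its HeJ signals were 433, 386 and 382 in air, 592, 564 and 587 at 6 h, 588, 571 and 452 at 24 h and 516, 589.7 and 644 at 48 h, all exposed arrays above the air arrays. The adaptor Sel1l, the ligase Syvn1 and the channel proteins Derl1 and Derl2 passed nowhere, and their changes from air ran from -0.19 to 0.39.

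Xbp1 was the 1 member of the sensors and transcription factors that rose. The arrays report total Xbp1 and not its splicing. OuJ signals of Xbp1 were 7153, 6919.7 and 5742 in air, 8227, 8878 and 9590.3 at 24 h and 10066, 9459 and 10442 at 48 h, without overlap between air and either time. The changes were 0.43 ± 0.13 at 24 h (adjusted p = 0.0418) and 0.60 ± 0.13 at 48 h (adjusted p = 0.00461). The 24 h call was lost under 9 of 17 alternatives, with adjusted p between 0.0171 and 0.185. HeJ signals were 6255, 4706 and 6314 in air and 9843, 8144 and 7691 at 48 h, also without overlap, with a change of 0.57 ± 0.13 (adjusted p = 0.00438). Eif2ak3 changed by -0.18 to 0.37 and Atf6 by -0.13 to 0.37, and neither passed against air.

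In the Atf4 class 2 of 6 members rose in OuJ at each of 24 and 48 h, and in HeJ none rose and 1 fell, at 48 h. Atf4 itself had OuJ signals of 1937, 2074 and 2077 in air, 3095, 3008 and 4259 at 24 h and 2755, 2668 and 3588 at 48 h. Its changes of 0.74 ± 0.14 at 24 h (adjusted p = 0.00133) and 0.55 ± 0.14 at 48 h (adjusted p = 0.0131) both passed, the second not with the mean of its probe sets (0.34, adjusted p = 0.0539). HeJ arrays were at 2454, 2522 and 2578 in air, 3018, 3419 and 3160.3 at 24 h and 3737, 3243 and 2804 at 48 h, also all above air, with changes of 0.34 ± 0.14 (adjusted p = 0.132) and 0.36 ± 0.14 (adjusted p = 0.088) that did not pass.

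Ddit3 (CHOP), a transcription factor linked to cell death under lasting ER stress, had OuJ signals of 376, 545 and 392 in air, 340.5, 382 and 385 at 6 h, 684, 555 and 958 at 24 h and 850.1, 789 and 835 at 48 h. The OuJ arrays at 24 and 48 h lay above all those in air, with changes of 0.70 ± 0.16 (adjusted p = 0.00989) and 0.91 ± 0.16 (adjusted p = 0.00133). In HeJ they were at 574, 566 and 527 in air, 337, 402 and 394 at 6 h, 343, 523 and 441 at 24 h and 624, 540.5 and 579.8 at 48 h. The HeJ arrays at 6 and 24 h lay below those in air, with changes of -0.54 ± 0.16 (adjusted p = 0.315) and -0.36 ± 0.16 (adjusted p = 0.196) that did not pass, and at 48 h the change was 0.06 ± 0.16 (adjusted p = 0.861).

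Ppp1r15a (Gadd34), the phosphatase subunit that restores translation after Eif2ak3 has acted, was the 1 member that fell. Its HeJ signals were 1192, 1090.4 and 1081 in air, 992, 1024 and 957 at 24 h and 836, 759 and 828 at 48 h, and the 48 h arrays lay below all other HeJ arrays. The change was -0.47 ± 0.11 (adjusted p = 0.00658). In OuJ the changes were 0.14 to 0.25 and none passed, from air signals of 837, 834 and 895 to 942, 939 and 949 at 48 h. The asparagine synthetase Asns changed by -0.04 to 0.24, the glutathione-degrading enzyme Chac1 by -0.39 to 0.27 and the pseudokinase Trib3 by -0.52 to 0.18, with no call. Chac1 and Trib3 lay near the table's median, at signals of 125 to 422 and 135 to 326.

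Of the genes for translocation into the ER and transport out of it 1 of 9 rose in OuJ at each of 24 and 48 h, none in HeJ at 24 h and 4 in HeJ at 48 h. The class's log2 level averaged 10.52 to 10.60 in HeJ air, 10.43 to 10.72 at 24 h and 10.92 to 10.98 at 48 h, and the HeJ arrays at 48 h lay above every other array of both strains. Ckap4, a protein of the sheet-like ER, had HeJ signals of 1538, 1474 and 1410.2 in air, 1284, 1381 and 1415 at 24 h and 2357, 2460.4 and 2992 at 48 h. These 48 h arrays were the highest of all 24, with a change of 0.81 ± 0.14 (adjusted p = 0.000487). In OuJ Ckap4 changed by 0.41 ± 0.14 at 48 h (adjusted p = 0.0681). Sec23b, a coat protein of the vesicles that leave the ER, rose in OuJ at 24 h (0.34 ± 0.10, adjusted p = 0.0378) and 48 h (0.33 ± 0.10, adjusted p = 0.0389) and in HeJ at 48 h (0.55 ± 0.10, adjusted p = 0.000884). Its OuJ calls were lost under 7 and 8 of 17 alternatives. HeJ signals of Sec23b were 1304, 1300.4 and 1495 in air and 1905, 1925 and 2169 at 48 h, without overlap. Spcs2, a signal peptidase subunit, and Sec61b, a subunit of the translocon channel, rose in HeJ at 48 h by 0.50 ± 0.10 and 0.45 ± 0.13 (adjusted p = 0.00245 and 0.0199). Sec61a1, Ssr1, Ssr3, Sec11c and the coat protein Sec24d passed against air nowhere, within -0.32 to 0.29.

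**Figure D3:**
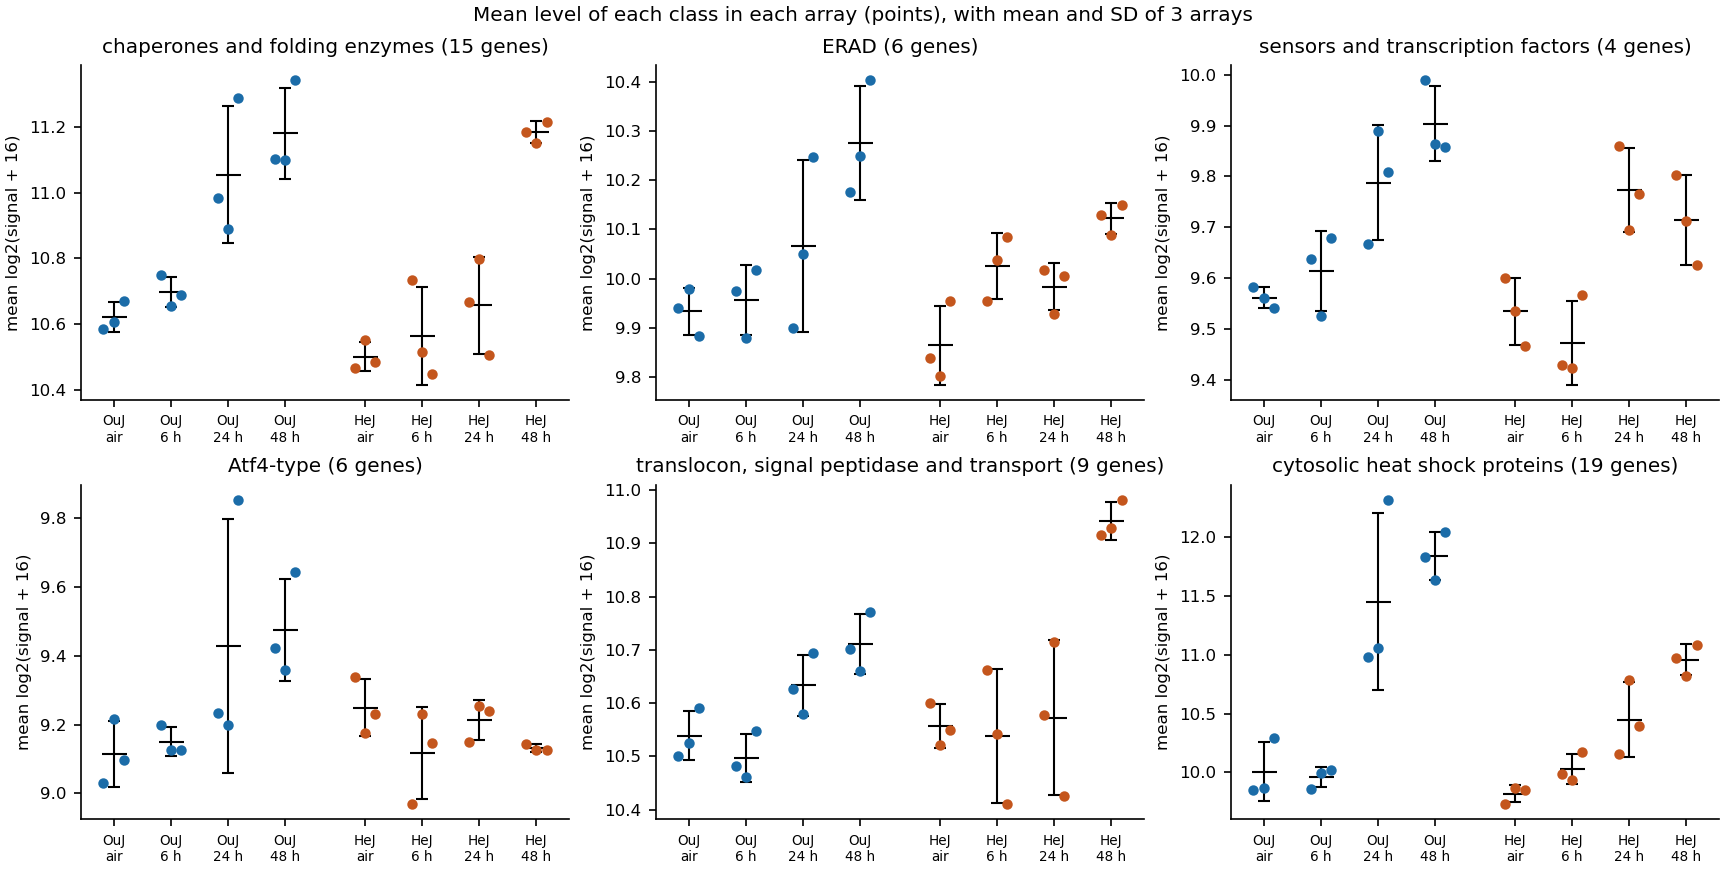
Mean log2(signal + 16) of the genes of each member class, Ern1 included, and of 19 heat shock genes (vertical axes, not starting at 0), in the 8 groups of 3 arrays. The heat shock panel is titled cytosolic, but Hspd1 and Hspe1 in it are mitochondrial. Points are arrays, in replicate order, and bars give mean and SD, OuJ in blue and HeJ in orange. OuJ replicate 3 at 24 h was the highest of its group for the chaperones (11.29), the Atf4 class (9.85) and the heat shock genes (12.32).

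One array stood apart among the OuJ arrays at 24 h. Replicate 3 was the highest of its group for 31 of the 39 members, replicates 1 and 2 for 4 each. It also had the highest mean level of 19 heat shock genes, 12.32 against 10.98 and 11.06 in replicates 1 and 2 and 9.85 to 10.30 in OuJ air. Without it 3 members passed in OuJ at 24 h, Hspa5, Manf and Atf4, in place of 9. At 48 h OuJ replicate 3 was likewise the highest of its group for 26 of the 39 members, and without it 8 members passed in place of 12. In HeJ at 24 h replicate 3 was the lowest of its group for 23 of the 39 members. Of the 19 heat shock genes 17 rose in OuJ at each of 24 and 48 h, 3 in HeJ at 24 h and 13 in HeJ at 48 h. Hspd1 and Hspe1 among them are mitochondrial, and the others cytosolic. Hspa1b, an inducible cytosolic Hsp70, changed by 3.56 ± 0.62 in OuJ and 2.67 ± 0.62 in HeJ at 24 h (adjusted p = 0.000863 and 0.00939), and its paralog Hspa1a is so alike that their signals may be shared. The part of the heat shock genes in the members' changes was not tested.

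Between the strains no member's change differed at 6, 24 or 48 h in limma's test of the difference. The shares of all genes that passed in either direction were 0.0125%, 0.0125% and 0%. At an unadjusted p under 0.05 there were 2, 8 and 6 members, and the share of all genes at that looser threshold is not given here. The largest difference, OuJ minus HeJ, was that of Ddit3 at 24 h, 1.06 ± 0.23 (adjusted p = 0.212), followed by Ddit3 at 48 h with 0.85 ± 0.23 (adjusted p = 0.288). Ppp1r15a at 48 h differed by 0.60 ± 0.15 (adjusted p = 0.202) and Herpud1 by 0.59 ± 0.22 (adjusted p = 0.451). For Manf and Hspa5 at 24 h the differences were 0.56 ± 0.26 and 0.49 ± 0.19 (adjusted p = 0.626 and 0.509). At 24 h 14 of 15 chaperones had the larger value in OuJ, with a median difference of 0.32, beside -0.01 over all genes. At 48 h 11 of them had the larger value in HeJ, with a median difference of -0.14, as did all 9 translocon and transport genes, with a median of -0.20, beside 0.00 over all genes. The Atf4 class had a median difference of 0.31 at 24 h and 0.63 at 48 h. At 24 and 48 h the strain difference cannot be told apart from that between series 10 and 13. In air 0 of 39 members differed between the strains by limma, beside 0.387% of all genes in each direction. Without adjustment 6 members had a p under 0.05, again with no share of all genes at that threshold. The largest difference in air was that of Ppp1r15a, -0.38 ± 0.11 (adjusted p = 0.0858).

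**Figure D4:**
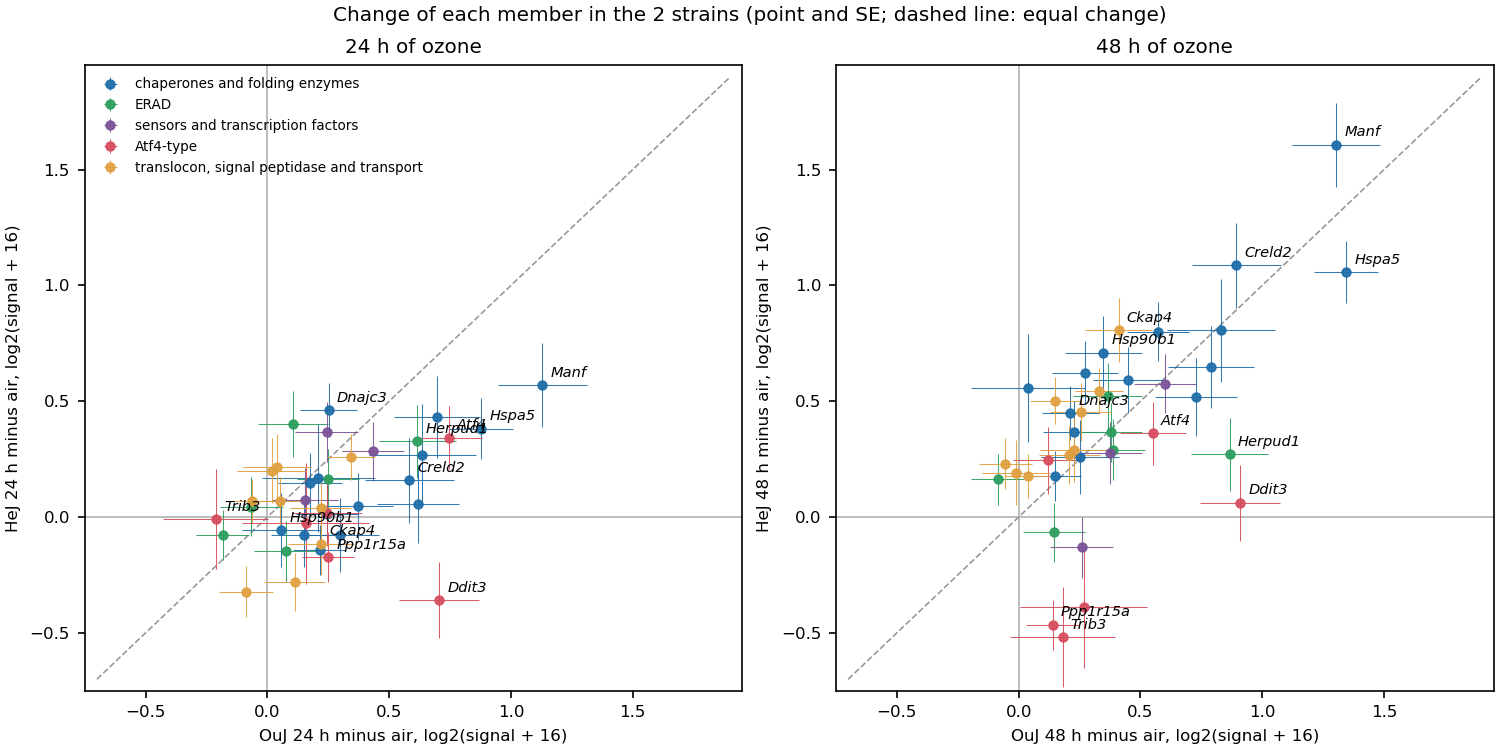
Change from air of each tested member in OuJ (horizontal) against HeJ (vertical) at 24 h and 48 h, as differences of log2(signal + 16), with SE bars and colour by class. The dashed line marks equal change. At 24 h 14 of 15 chaperones lie below the line, at 48 h 11 of them lie above it, and Ddit3 lies farthest below it at both times.

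From 24 to 48 h, within a series number, 11 of 39 members rose in HeJ and 1 fell, beside 2.62% and 2.85% of all genes (5.47% in either direction). In OuJ none passed by limma, beside 0.15% of all genes that rose and 0% that fell. Without adjustment 3 members had a p under 0.05, a threshold at which the share of all genes is not given here. The arrays at 48 h lay above all those at 24 h for 21 members in HeJ and below for 4 (12.3% and 11.6% of all genes), and for 3 and 0 in OuJ (7.31% and 7.2%). The HeJ rises were Hspa5, Hsp90b1, Manf, Pdia6, Calr, Creld2 and Hyou1 of the chaperones and Ssr1, Sec11c, Spcs2 and Ckap4 of the translocon class. Manf changed by 1.04 ± 0.18 (adjusted p = 0.00354), Ckap4 by 0.92 ± 0.14 (adjusted p = 0.00118) and Creld2 by 0.93 ± 0.18 (adjusted p = 0.00516). Sec11c, a catalytic subunit of the signal peptidase, had HeJ signals of 593, 662 and 483 at 24 h and 790.3, 878 and 886 at 48 h, around air values of 764, 648 and 761, and changed by 0.55 ± 0.11 (adjusted p = 0.00564). Ssr1, a translocon-associated protein, changed by 0.55 ± 0.12 (adjusted p = 0.0149). Atf6 fell by 0.50 on the log2 scale (SE 0.13, adjusted p = 0.0265), from 862, 748 and 742 to 470.4, 602 and 584, with air signals of 583, 658 and 569.5. In OuJ the largest change from 24 to 48 h was that of Hspa5, 0.47 ± 0.13 (adjusted p = 0.238). The count of 12 in HeJ was 6 without HeJ 24 h replicate 3, 7 without replicate 1, and 0 without both of these and the other 2 arrays whose codes bear a suffix, which leaves 1 HeJ array at 24 h, taken to vary like the other groups. Fitted within series 13 alone, 8 rose and none fell.

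Other genes of the same pathways were taken from lists of general knowledge, 152 in all, of which 125 were tested. In OuJ 7 rose at 24 h (5.6%, beside 3.16% of all genes) and 8 at 48 h (6.4%, beside 3.7%), and none fell. In HeJ 3 rose and 3 fell at 24 h (2.4% each, below the 3.16% and 3.96% of all genes), and 21 rose and 1 fell at 48 h (16.8% and 0.8%, beside 5.69% and 6.47%). Their median changes were 0.07 and 0.06 in OuJ and 0.06 and 0.13 in HeJ. Of 24 further Atf4-type genes 5 and 4 rose in OuJ at 24 and 48 h and 2 and 7 in HeJ. They included the amino acid transporter chain Slc3a2 in OuJ (0.56 ± 0.12 at 24 h, adjusted p = 0.00458) and in HeJ at 24 h (0.51 ± 0.12, adjusted p = 0.0084). The stress transcription factor Atf3 changed by 1.27 ± 0.29 at 24 h and 1.33 ± 0.29 at 48 h in OuJ (adjusted p = 0.00923 and 0.00648). The serine synthesis enzyme Psat1 changed by 0.87 ± 0.21 in HeJ at 48 h (adjusted p = 0.00765) and the mitochondrial Shmt2 by 0.63 ± 0.15 (adjusted p = 0.00767). Among 47 further genes of the translocon, the oligosaccharyl transferase and transport 9 rose in HeJ at 48 h, 3 in OuJ at 48 h and none at 24 h in either strain. The signal peptidase subunit Spcs3 changed by 0.78 ± 0.15 in HeJ and 0.55 ± 0.15 in OuJ (adjusted p = 0.00119 and 0.0199) and the oligosaccharyl transferase subunit Ostc by 0.57 ± 0.10 and 0.33 ± 0.10 (adjusted p = 0.000454 and 0.0341).

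Of 21 further folding and redox enzymes none passed in OuJ at either time. In HeJ Selenom, Pdia5 and Sil1, the last a nucleotide exchange factor of Hspa5, fell at 24 h, by 0.55, 0.59 and 0.63 on the log2 scale (adjusted p = 0.02, 0.0424 and 0.0497). At 48 h the ER prolyl isomerase Fkbp2 and the glucosidase Mogs rose there (0.58 ± 0.13 and 0.54 ± 0.17, adjusted p = 0.00387 and 0.0428). Of 17 further ERAD genes 1 rose in each of OuJ at 24 and 48 h and HeJ at 24 h, and 2 in HeJ at 48 h. The ubiquitin-conjugating enzyme Ube2g2 was among them each time, with changes of 0.71 ± 0.15 and 0.61 ± 0.15 in OuJ and 0.73 ± 0.15 and 0.57 ± 0.15 in HeJ. Of 16 further stress transducers Creb3l3 rose in OuJ at 24 h (1.25 ± 0.36, adjusted p = 0.0377). Its mean signals were low, 75.1 in OuJ air and 201.9 at 24 h, both below the table's median of 218.3. At 48 h in HeJ the ER membrane stabiliser Serp1 rose (0.43 ± 0.11, adjusted p = 0.0147) and the ER-linked caspase Casp12 fell by 0.58 (adjusted p = 0.0192).

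Some markers of secretory and other cells passed as well. Of all genes 3.16% and 3.7% rose and 3.42% and 4.24% fell at 24 and 48 h in OuJ. In HeJ 3.16% and 5.69% rose and 3.96% and 6.47% fell. The summed signals of the plasma cell, alveolar type 2 and club cell lists overlapped between air and 48 h in both strains. Of 6 tested plasma cell markers none rose, and 1 fell in OuJ at 24 h and at 48 h, 1 in HeJ at 24 h and 2 in HeJ at 48 h. The summed signal of the 7 on the array was 5666 to 7412 in OuJ air and 4962 to 5835 at 48 h, and 5612 to 6968 in HeJ air and 5427 to 6381 at 48 h. Much of this sum came from the 1 gene Sdc1, at signals of 2592 to 4030 over all arrays. The joining chain Jchain lay between 246 and 1770 over all arrays, and the receptor Tnfrsf17 below a signal of 16 in 5 arrays. Of 12 alveolar type 2 markers 3 rose in OuJ at 24 h and at 48 h, where 1 fell, 1 rose in HeJ at 24 h and 3 at 48 h. Their summed signals were 143880 to 175230 in OuJ air, 167640 to 180130 in OuJ at 48 h, 168950 to 176870 in HeJ air and 175010 to 187250 in HeJ at 48 h. Cell division genes, 9 in number, rose at 48 h for 8 in OuJ and 5 in HeJ, with summed signals of 3873 to 4316 in OuJ air and 7028 to 7935 at 48 h, and of 3477 to 4352 in HeJ air and 6288 to 6793 at 48 h. Of 8 endothelial markers 3 fell in OuJ and 6 in HeJ at 48 h. Of 6 B cell markers 5 or 6, and of 7 T and NK cell markers 2 to 6, fell in each strain at 24 and 48 h. Of 8 club and mucous cell markers 1 rose in both strains at 24 and 48 h, Retnla, which macrophages also make, by 2.52 and 2.91 in OuJ and 1.98 and 2.26 in HeJ, and 1 fell in HeJ at 48 h. The summed signals of this list were 103500 to 130810 in OuJ air and 116430 to 131000 at 48 h, and 128470 to 146440 in HeJ air and 126990 to 131310 at 48 h. Of 11 macrophage markers 1 rose in OuJ at 24 h and at 48 h, while in HeJ 1 rose and 2 fell at 24 h and 4 rose and 2 fell at 48 h. Of 6 neutrophil markers 2 fell in OuJ at each time and none passed in HeJ, and of 10 fibroblast markers 3 fell in HeJ at 48 h and none passed at the other 24 and 48 h comparisons. No gene of these marker lists was at 0 in any array. The ratio of the 5′ to the 3′ Gapdh control, a sign of RNA integrity, averaged 0.843 to 0.895 in the OuJ groups. In HeJ it averaged 0.558 in air, 0.64 at 6 h, 0.753 at 24 h and 0.593 at 48 h. The part of these cell types and of RNA integrity in the members' changes was not tested.

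Set beside the promoters, 6 of the 8 members with an ERSE rose in HeJ at 48 h, all but Canx and Syvn1, and 9 of the 25 other tested members with a promoter. In OuJ at 48 h 3 of 8 rose, Hspa5, Creld2 and Pdia6, and 8 of 25. At 24 h the counts were 1 of 8 and 7 of 25 in OuJ, and 1 of 8 and 0 of 25 in HeJ. Of all genes tested 5.69% rose in HeJ and 3.7% in OuJ at 48 h, and 3.16% in each strain at 24 h. The median change of the holders was 0.67 in HeJ and 0.37 in OuJ at 48 h, and that of the 25 others 0.36 and 0.27. The holders and the others also differ by class, as 7 of the 8 holders are chaperones or folding enzymes. Of that class with a promoter and no ERSE, Sdf2l1, Dnajb9 and Dnajb11 also rose in HeJ at 48 h. Pdia3, Pdia4 and P4hb did not. Whether the calls go with the element or with the class was not tested. Manf, Hyou1, Derl1, Atf6, Sec61a1 and Sec11c were not part of the promoter search.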

How the data were processed

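The authors deposited signal intensity for 22690 probe sets, made with GCOS 1.4 per the submitters' processing notes. Its settings are not known from the labels. Each array's trimmed mean lay between 500.14 and 500.17. Of the probe sets 64 are controls, 20380 carry 1 gene symbol, 691 several and 1555 none. For 20359 of the probe sets with 1 symbol, the symbol matched the RefSeq table. A gene was named from a probe set with 1 symbol. Intensities were turned into log2(intensity + 16), and the brightest probe set stood for its gene. Genes exceeding the overall median (218.3) on 3 or more of the 24 arrays were tested, 8002 of 12393. The linear model in limma 3.58.1 (R 4.3.3) gave every group its own mean, with an intensity trend, and 12 two-sided comparisons were drawn and adjusted over all genes tested. It was tested on simulated data. The number of arrays limits the precision. All members could be named, and of each other pathway list up to 3 genes per direction and comparison, those with the smallest p among the genes that passed. The members and lists were chosen with earlier results of these data known. Alternatives changed the normalization, pseudocount, filter, probe set rule, intensity trend, samples fitted, replicate block and arrays left out, and the closing section gives their effect.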

Additional observations from a re-analysis of the deposited data

How the results depend on the processing

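No alternative reversed a called change of a member. Of the calls against air, 3 of 9 in OuJ at 24 h (Hspa5, Manf and Atf4), 7 of 12 in OuJ at 48 h, 0 of 1 in HeJ at 24 h and 11 of 18 in HeJ at 48 h held in all 17 alternatives run on them. The count of members called moved by over 1.5 times as follows, and the cause was not tested. With the mean of a gene's probe sets it was 2 in HeJ at 24 h and 1 between the strains in air. With only the groups compared in the fit it was 5 in OuJ at 24 h and 0 in HeJ at 24 h. Without the 4 arrays with a code suffix it was 0 in HeJ at 24 h and 0 for HeJ 48 h against 24 h, where fewer arrays remain. Leaving out each array in turn gave 3 to 9 in OuJ at 24 h, 8 to 12 in OuJ at 48 h, 0 to 1 in HeJ at 6 h, 0 to 2 in HeJ at 24 h, 13 to 15 in HeJ at 48 h, 6 to 14 for HeJ 48 h against 24 h, 0 to 1 for OuJ 48 h against 24 h, 0 to 1 for the strain difference at 24 h and 0 elsewhere. The count of 9 in OuJ at 24 h was 4 without OuJ air replicate 1, 5 without OuJ air replicate 2 or 3 and 3 without OuJ 24 h replicate 3, and that of 12 in OuJ at 48 h was 8 without OuJ 48 h replicate 3. In HeJ at 24 h the 1 call, Dnajc3, was lost without HeJ 24 h replicate 1 or 2 or HeJ air replicate 2, and 2 members fell without HeJ 24 h replicate 2. Same-numbered replicates deviated together at r = -0.04 to 0.20, not over 0.1 for every pair, and were not treated as pairs. This check cannot show whether they share more than a number. With the replicate block the count was 2 in HeJ at 24 h, 13 for HeJ 48 h against 24 h, 13 in OuJ at 48 h and as before in the others. Pdia6 in OuJ at 48 h changed by 0.19 (adjusted p = 0.528) with the mean of its probe sets.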

Other observations

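Several members have more than 1 probe set, and the changes above come from the brightest. Probe sets above the table's median in fewer than 3 arrays were left out of what follows. Of 18 calls against air of members with several remaining probe sets, 0 had one of the other sign. The dimmer probe sets were not compared, those of Pdia6 among them. The other probe set of Hspa5 changed by 0.86 and 1.32 in OuJ at 24 and 48 h and by 0.38 and 1.13 in HeJ, beside 0.88, 1.34, 0.38 and 1.06 for the one used. Herpud1's other probe set changed by 0.69 and 0.90 in OuJ and by 0.50 and 0.37 in HeJ. The 4 probe sets of Xbp1 changed by 0.24 to 0.80 in OuJ and 0.27 to 0.58 in HeJ at 48 h. For Atf4 the second probe set changed by 0.79 in HeJ at 48 h, beside 0.36 for the one used. Hsp90b1's second probe set changed by 0.59 in HeJ at 24 h, beside -0.06. For Ckap4 the other probe sets changed by 0.41 and 0.50 in HeJ at 48 h, beside 0.81. The 6 probe sets of Sec61a1 changed by -0.42 to 0.19 in OuJ at 24 h.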
